A study of Mus musculus with 80 samples.

Results

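Heat shock and cold-inducible RNA-binding transcripts were followed in mouse liver over 36 h, through subjective day and night, with and without food. The 10 genes, taken by symbol from a gene table of 78275 genes, were Hspa8, Hspa1a, Hspa1b, Hsph1, Hsp90aa1, Hsp90ab1, Dnaja1, Dnajb1, Cirbp and Rbm3, and all 10 were among the 21187 genes that passed a filter on low counts. C57BL/6J mice of both sexes, 8 to 12 weeks old at purchase, had standard chow in group cages under 10 days of light and dark, and then entered constant darkness. Control mice kept food throughout, and fasted mice lost it at circadian time (CT, in hours from subjective dawn) 10. Livers were taken every 4 h from CT8 to CT44, with 2 males and 2 females for each treatment and time, which gave 40 control and 40 fasted libraries of polyadenylated RNA from the centre of the left lobe. The fasted group at CT8 had therefore not yet been fasted, CT12 followed 2 h without food and CT44 followed 34 h. The labels do not say which mice shared a cage, so p-values measure the spread between these mice. Body temperature was not among the measurements analysed here.

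The heat shock proteins are chaperones that keep other proteins folded. Hspa8 encodes the constitutive HSP70 of the cytosol, while Hspa1a and Hspa1b encode its stress-inducible relatives. Hsph1 encodes an HSP110 protein that helps HSP70 exchange nucleotides, Dnaja1 and Dnajb1 encode J-domain partners that hand it clients and start ATP hydrolysis, and Hsp90aa1 and Hsp90ab1 encode the inducible and the constitutive cytosolic HSP90. Transcription of many of these genes is driven by heat shock factor 1 (HSF1), which binds repeats of a short element and is active in liver when body temperature is high. Cirbp and Rbm3 encode RNA-binding proteins known for the reverse behaviour, since their mRNA accumulates in mild cold. In Rbm3, cold is known to change the splicing of an exon whose inclusion brings in an early stop codon.

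Promoter sequence was taken from RefSeq on GRCm38.p6, where 6 of the 10 genes matched with 11 windows of 250 bases before a transcript start. No window held 3 alternating units of the heat shock element, spelled GAANNTTCNNGAA or its reverse complement TTCNNGAANNTTC, which stood in 0.466% of 32851 promoters of that length. A pair of facing units, GAANNTTC or TTCNNGAA, each of which reads the same on both strands, was found in 4 of the 6 genes and in 12.8% of all promoters. The E-box CACGTG, which clock proteins can bind, was found in Hsph1 alone and in 6.02% of all promoters. The counts are of genes, some with several windows, whereas the percentages are of single promoters, so they are not on the same unit. These matches describe letters and not bound sites. The 4 promoters are shown because the genes behind them include the pair with the widest spread between mice, and the capitals mark the unit pair and, near the end of Hsph1, the E-box. Hspa1a and Hspa1b lie on the minus strand of chromosome 17 and their promoters, at chr17:34972157-34972406 and chr17:34959239-34959488, differed at 3 of 250 positions. Hsph1, on the minus strand at chr5:149636316-149636565, had its pair 54 bases before the start, Dnaja1, on the plus strand at chr4:40722218-40722467, had it 124 bases before, and the HSP70 pair had it 104 bases before.
Hspa1a promoter: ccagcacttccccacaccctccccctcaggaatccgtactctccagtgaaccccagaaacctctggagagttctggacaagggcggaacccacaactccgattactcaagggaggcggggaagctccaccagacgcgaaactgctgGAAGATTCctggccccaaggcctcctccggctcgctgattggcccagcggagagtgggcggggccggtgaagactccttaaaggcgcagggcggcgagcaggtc
Hspa1b promoter: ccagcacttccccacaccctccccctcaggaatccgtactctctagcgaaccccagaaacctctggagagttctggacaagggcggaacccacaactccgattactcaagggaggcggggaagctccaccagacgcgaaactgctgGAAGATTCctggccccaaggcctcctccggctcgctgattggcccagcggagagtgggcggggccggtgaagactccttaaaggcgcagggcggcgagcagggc
Hsph1 promoter: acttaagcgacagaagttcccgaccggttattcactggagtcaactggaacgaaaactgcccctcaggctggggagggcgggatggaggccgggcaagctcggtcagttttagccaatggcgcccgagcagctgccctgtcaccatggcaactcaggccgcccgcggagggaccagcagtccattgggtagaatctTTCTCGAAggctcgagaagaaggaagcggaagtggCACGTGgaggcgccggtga
Dnaja1 promoter: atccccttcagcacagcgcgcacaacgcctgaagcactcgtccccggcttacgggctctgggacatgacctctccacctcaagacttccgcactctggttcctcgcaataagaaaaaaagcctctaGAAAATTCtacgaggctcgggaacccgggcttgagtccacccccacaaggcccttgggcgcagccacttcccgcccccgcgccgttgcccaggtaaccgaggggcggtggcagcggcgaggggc
The last sequence is shown because it opens an Rbm3 exon with an early stop codon, matched to one of several exon bins called lower under fasting. It is the first 63 bases of a 271-base exon of the annotated transcript Rbm3-207, with the stop codon TGA in capitals. It lies on the minus strand at chrX:8144383-8144445 of GRCm38, within exon bin 18 if deposited and annotated bins are matched by number.
Rbm3 exon start: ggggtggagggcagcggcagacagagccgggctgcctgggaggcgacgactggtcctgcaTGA

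Libraries held 25534901 to 59927771 gene counts (median 42303883). One library stood apart, control CT8 female 2, in which 31.3% of counts came from the ribosomal RNA gene Rn18s, against at most 4.88% elsewhere. Expression of sex-linked genes matched the labelled sex in 80 of 80 libraries. The 4 hepatocyte markers were present in every library, with summed levels of 56795 to 125355 CPM (counts of a gene scaled to the size of its library) from CT12 on. In bulk tissue, fewer cells of a type and less RNA per cell cannot be told apart. The 4 Kupffer cell markers were all lower in fasted mice, with a median sum of 205 CPM in fasted and 274 CPM in control libraries. Of 4 cholangiocyte and 4 stellate cell markers 3 each were lower, with median log2 differences of -0.34 and -0.26. The remaining stellate marker, Dcn, was called higher (0.12). Of the 4 hepatocyte markers 3 were called higher and 1, Ttr, lower (-0.48). The 7 immediate-early genes, which respond to handling, were higher for 5 and lower for 0, and their summed level was 122 to 287 CPM in the fasted CT44 mice and 49.4 to 63.2 CPM in the CT44 controls. The part of any of these in the results was not tested.

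In fed mice the heat shock transcripts rose in the subjective night and Cirbp peaked near the subjective morning. A 24 h rhythm was called for 9 of the 10 genes over the 40 control libraries, against 41.8% of all genes tested, by edgeR's quasi-likelihood test. Hspa8 stood at 1497, 850, 1841 and 1730 CPM in the mice of CT16 (male 1, male 2, female 1 and female 2, an order kept throughout) and at 560, 555, 442 and 391 CPM in those of CT32. The lowest CT16 mouse lay above the highest CT32 mouse. The fitted peak of Hspa8 was at CT14.9 (95% interval 13.4 to 16.3) with a peak-to-trough log2 difference of 1.21 (adjusted p = 0.000246). Its J-domain partners peaked close by, Dnaja1 at CT15.2 (14.1 to 16.4) and Dnajb1 at CT15.6 (13.7 to 17.6). The inducible Hspa1b peaked at CT15.2 (13.2 to 17.3) with a peak-to-trough log2 difference of 1.80 (adjusted p = 0.0236). At CT16 the males stood at 13.3 and 7.87 CPM and the females at 44.7 and 42.0 CPM. The rhythms of Hspa1b and Dnajb1 were the 2 of 9 that did not pass when 1 of the 4 replicates was left out (without female replicate 1, adjusted p = 0.297 for Hspa1b and 0.215 for Dnajb1). Hspa1a, at a mean of 0.693 CPM in controls, had a fitted peak at CT16.0 but did not pass (adjusted p = 0.0901).

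**Figure D1:**
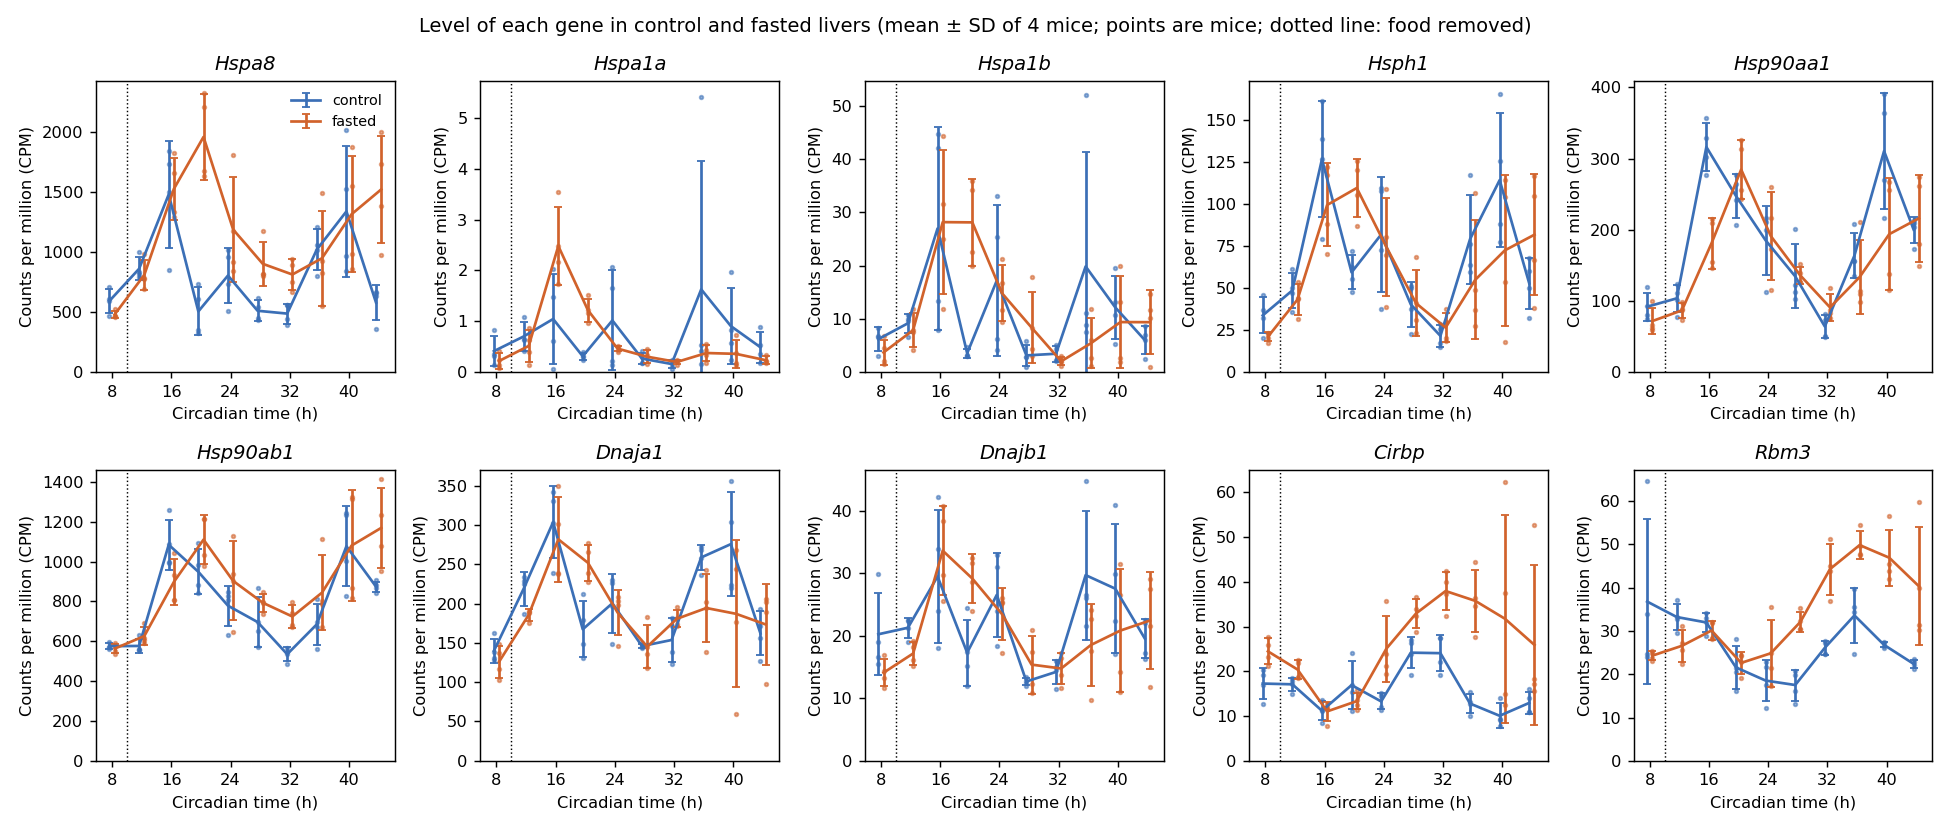
Level of each of the 10 genes in CPM (linear axis from 0) against circadian time in hours, in control (blue) and fasted (orange) livers, with 1 point per mouse, lines and bars for the mean ± SD of 4 mice and a dotted line where food was removed. Fasted Hspa8 at CT20 sits at 1633 to 2323 CPM, above the controls at 326 to 736 CPM, and fasted Cirbp at CT36 sits at 27.6 to 44.3 CPM, above the controls at 10.0 to 15.4 CPM.

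The HSP90 and HSP110 transcripts had later fitted peaks in the night. Among the sampled times, however, their highest control means were at CT16, as was that of Hspa8, and the difference in peak between genes was not tested. Hsp90aa1 was at 357, 302, 329 and 277 CPM at CT16 and at 73.8, 82.2, 51.1 and 49.1 CPM at CT32, so that the groups lay far apart. Its peak fell at CT18.7 (17.8 to 19.6) with a peak-to-trough log2 difference of 1.78 (adjusted p = 8.92e-09). The constitutive Hsp90ab1 peaked with it, at CT19.0 (± 0.96 h for 95%), over a smaller range of 0.86 on the log2 scale (adjusted p = 1.42e-08). Hsph1 lay between these groups at CT17.5 (16.1 to 18.9), with a log2 range of 1.64. The intervals of Hspa8 and Hsp90aa1 did not overlap, whereas those of Hsph1 overlapped both. For scale, the clock genes Per2, Bmal1 and Nr1d1 peaked in the same livers at CT14.3, CT21.4 and CT7.08.

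The 2 cold-inducible genes did not share a phase. Cirbp was at 19.3, 27.1, 23.9 and 26.4 CPM at CT28 and at 14.1, 9.01, 7.73 and 9.40 CPM at CT40, without overlap, and peaked at CT5.04 (3.75 to 6.34) with a peak-to-trough log2 difference of 0.96 (adjusted p = 2.13e-05). Its interval lay apart from that of every heat shock gene. Rbm3 peaked at CT12.5 (11.5 to 13.5), with a log2 range of 0.98 (adjusted p = 9.60e-06). Rbm3 stood at 33.3, 37.2, 29.6 and 32.8 CPM at CT12 and at 16.2, 20.8, 13.0 and 19.9 CPM at CT28. The mean of Rbm3 at CT8, 36.8 ± 19.1 CPM (SD, n = 4), held the library rich in ribosomal RNA at 64.6 CPM beside 24.8, 23.9 and 33.9 CPM.

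**Figure D2:**
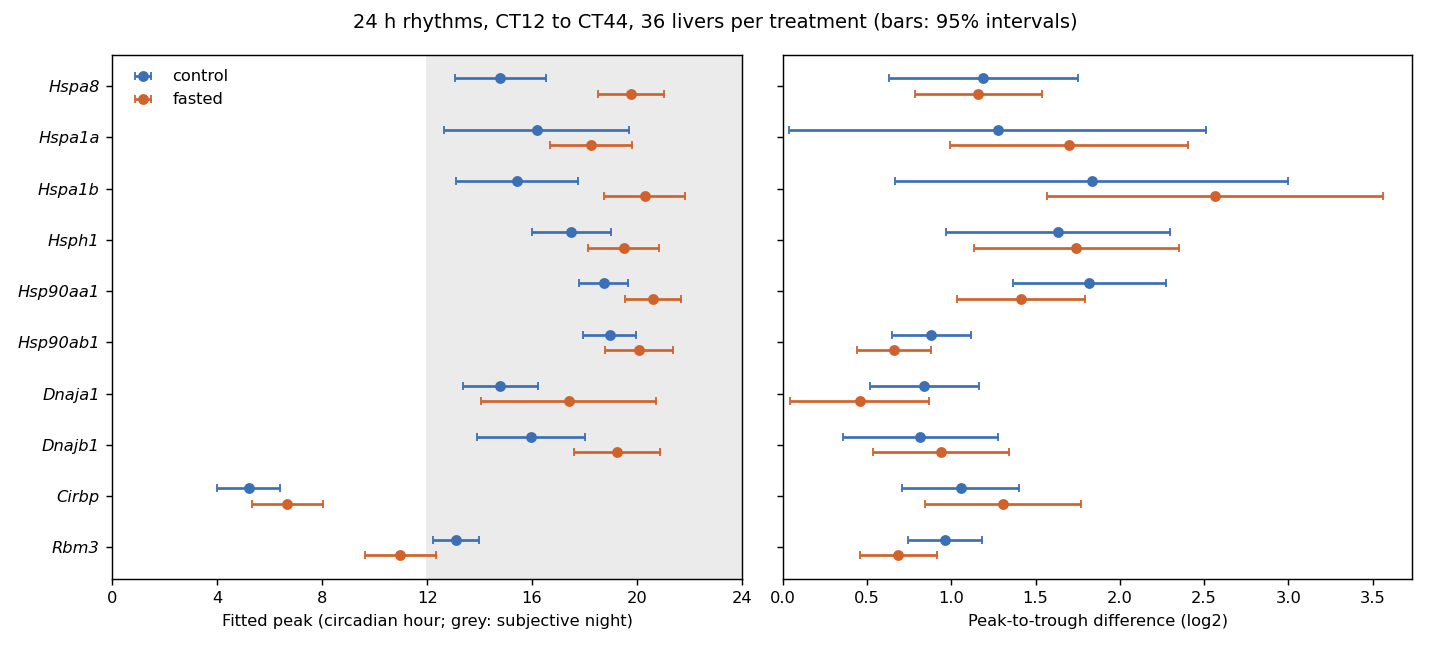
Fitted peak in circadian hours (left, subjective night in grey) and peak-to-trough difference on the log2 scale (right) of each gene in control (blue) and fasted (orange) mice, from a fit to the 36 libraries per treatment after food removal that allows a linear drift, with 95% intervals as bars. Hspa8 peaked at CT14.8 in controls and CT19.8 in fasted mice, and Cirbp lay apart from the heat shock genes at CT5.19 and CT6.67.

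Before food was removed, at CT8, edgeR's test called 0 of 10 genes, with 4 at an unadjusted p under 0.05, while DESeq2 called 1 and limma-voom 0, against 1.33% of all genes. All 8 heat shock genes had estimates below 0 in the group to be fasted, and the median over the 10 genes was -0.43 beside 0.0064 over all genes. Without the filter on low counts 5 were called, among them Hspa1b (-0.99), Hsph1 (-0.65) and Dnajb1 (-0.51). The share of all genes called without the filter is not given here, so that count has no background beside it. The fasted group's Cirbp values at that time, 23.2, 21.1, 27.8 and 25.8 CPM, nevertheless lay above the control values of 20.4, 19.2, 12.6 and 16.9 CPM. That difference, 0.52 ± 0.21 (log2 ± SE), did not pass (adjusted p = 0.239). For Rbm3 the sign was the other way at -0.51 ± 0.15 (adjusted p = 0.0682) and rested on the library rich in ribosomal RNA.

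Averaged over CT12 to CT44, fasting raised 4 of the 10 transcripts and lowered 0, where 29.5% of all genes were called higher and 32.9% lower. Cirbp rose by 0.64 ± 0.07 on the log2 scale (a fold of 1.55, adjusted p = 6.81e-11), Hspa8 by 0.60 ± 0.07 (1.51-fold, adjusted p = 1.56e-10), Rbm3 by 0.43 ± 0.05 (1.35-fold, adjusted p = 1.56e-10) and Hsp90ab1 by 0.18 ± 0.04 (1.13-fold, adjusted p = 0.000241). The 4 were thus both cold-inducible genes and the constitutive forms of the cytosolic HSP70 and HSP90. Each of the 4 passed also without any 1 of the replicates. With calls in either direction at 62.5% of all genes, a count of 4 in 10 was below the background. Among the genes not called, mean differences were nearest 0 at -0.03 for Hspa1a (95% interval -0.41 to 0.35), -0.03 for Hsph1 (-0.23 to 0.18) and -0.01 for Dnajb1 (-0.15 to 0.13). Hsp90aa1 was at -0.14 (-0.27 to -0.0017, adjusted p = 0.0812), Dnaja1 at -0.06 (-0.18 to 0.06) and Hspa1b at 0.25 (-0.10 to 0.61). The median over the 10 genes was 0.08 and that over all genes -0.02.

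**Figure D3:**
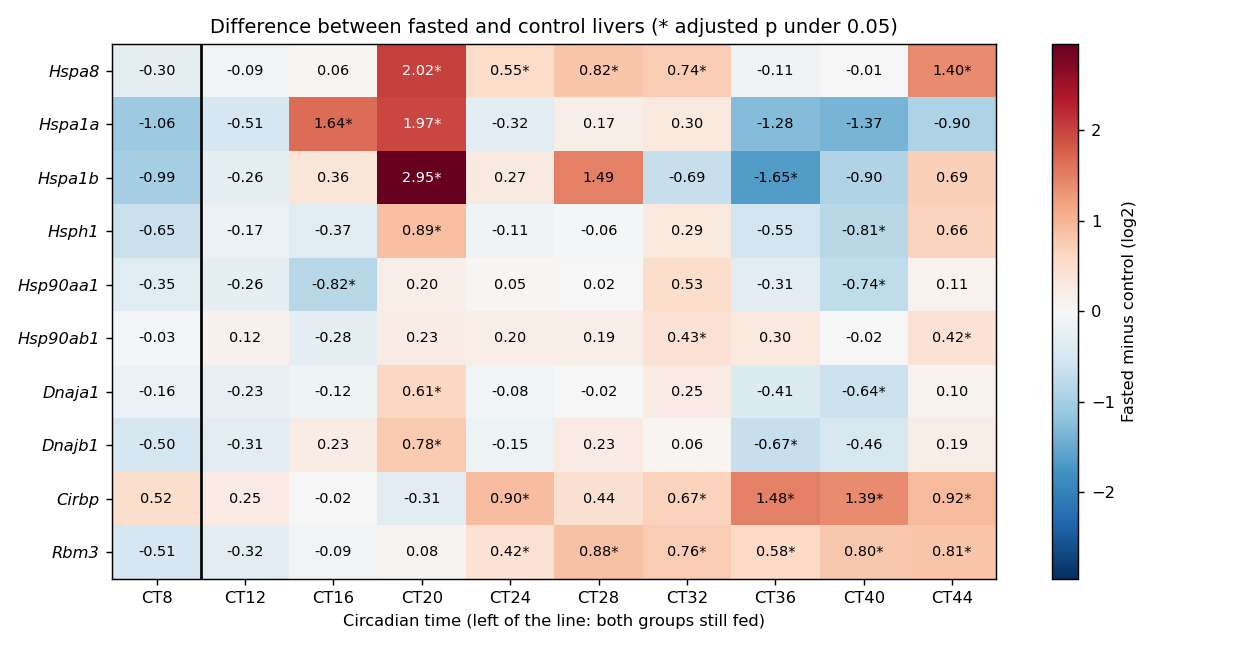
Difference between fasted and control livers on the log2 scale for each gene (down) and circadian time (across), as a colour from blue (lower in fasted) to red (higher) with the value printed, an asterisk for an adjusted p under 0.05 and a line between CT8, when both groups were fed, and the later times. The 6 called differences at CT20 are all above 0, from 0.61 for Dnaja1 to 2.95 for Hspa1b.

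The sign of the difference changed with time for several genes. At single times 30 of 90 gene and time pairs were called, 24 higher and 6 lower in fasted mice, against 25.6% of all pairs (12.3% higher and 13.3% lower). From CT12 to CT44 the members called at each time were 0, 2, 6, 3, 2, 4, 4, 5 and 4, where the share of all genes called was 1.6, 23.4, 36.6, 24.1, 21, 17.7, 26.8, 39.9 and 39.4%. The 4 fasted mice lay wholly above the 4 controls in 20 pairs and wholly below in 1, where 21.1% of all pairs did not overlap. CT20 held 6 calls, all higher, among Hspa8, Hspa1a, Hspa1b, Hsph1, Dnaja1 and Dnajb1. At CT20 the immediate-early genes summed to 105 to 166 CPM in fasted mice and 55.8 to 111 CPM in controls, with 2 of 7 called higher (Jun and Junb) and 0 lower, and their part in these calls was not tested. CT12 held 0, with 1 at an unadjusted p under 0.05 and 0 by DESeq2 and by limma-voom. Leaving out 1 replicate in turn kept 10 of the 30 calls in every case and lost 20 in at least 1 case. The 10 were Hspa8 at CT20 and CT44, Hspa1a and Hspa1b at CT20, Cirbp at CT36 and CT40, and Rbm3 at CT28, CT32, CT40 and CT44. Each of these fits drops a replicate at all times, so a loss can come with fewer mice as well as with a smaller difference.

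Hspa8 showed the clearest of these differences. At CT20 its controls stood at 326, 351, 736 and 608 CPM and its fasted mice at 1674, 1633, 2323 and 2204 CPM. The groups were far apart, by 2.02 ± 0.21 on the log2 scale (4.06-fold, adjusted p = 1.58e-10). In controls the level had dropped from a mean of 1479 CPM at CT16 to 505 CPM at CT20, whereas in fasted mice it went from 1526 to 1958 CPM. At CT28 and CT32 the fasted mice were again above all controls, with differences of 0.82 and 0.74, although those at CT28 included 1 mouse, male 2, at 1173 CPM beside 804 to 815 CPM in the others. At CT44 the controls stood at 656, 664, 632 and 362 CPM and the fasted mice at 1380, 1999, 976 and 1729 CPM, a difference of 1.40 ± 0.21 (2.64-fold, adjusted p = 4.28e-07). The call at CT24, 0.55, was lost without female replicate 1 (0.26, adjusted p = 0.383) and with the males alone turned to -0.16.

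The inducible HSP70 genes followed at CT20. Hspa1b was at 3.01, 3.29, 4.80 and 3.03 CPM in controls and at 22.5, 19.9, 35.9 and 34.2 CPM in fasted mice. This 7.75-fold difference, 2.95 ± 0.57 as log2, passed with an adjusted p of 4.36e-05. Hspa1a, at 0.397, 0.321, 0.237 and 0.287 CPM in controls and 1.22, 0.969, 1.16 and 1.52 CPM in fasted mice, differed by 1.97 (adjusted p = 0.00281). Hspa1a was also called at CT16, by 1.64 (adjusted p = 0.0110), a call lost without male replicate 1 (adjusted p = 0.131). Hspa1a and Hspa1b share long stretches, with 52.7% of the 75-base windows of Hspa1a present in Hspa1b and 55.8% the other way, so the division of reads between them is uncertain. Later in the fast the sign for Hspa1b varied, with log2 differences of -0.69 at CT32, -1.65 at CT36, -0.90 at CT40 and 0.69 at CT44. Of these only CT36 was called. At CT36 Hspa1b stood at 8.82, 52.0, 7.52 and 11.1 CPM in controls and 2.70, 5.95, 11.8 and 1.15 CPM in fasted mice, a log2 difference of -1.65 (adjusted p = 0.0196). That call rested on control male 2, at 52.0 CPM, and without male replicate 2 the difference was -1.11 (adjusted p = 0.349).

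The partners of HSP70 moved in the same direction at CT20. Hsph1 went from 47.9, 55.4, 71.8 and 62.3 CPM in controls to 105, 87.2, 120 and 125 CPM in fasted mice, without overlap, a log2 difference of 0.89 (adjusted p = 0.0228). Dnaja1 stood at 130, 148, 212 and 179 CPM in controls and 266, 238, 227 and 277 CPM in fasted mice, a difference of 0.61 (adjusted p = 0.00731). Dnajb1 differed by 0.78 (adjusted p = 0.00332), with 1 fasted mouse, at 23.9 CPM, below the highest control at 24.5 CPM. These calls at CT20 were lost in at least 1 case when a male replicate was left out, with adjusted p of 0.232 for Hsph1, 0.220 for Dnaja1 and 0.0613 for Dnajb1 without male replicate 1. Dnajb1 was lower at CT36 by 0.67, a call that without male replicate 2 became -0.29 (adjusted p = 0.580).

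The 2 HSP90 genes were called at different times under fasting, and the difference between them was not tested. Hsp90aa1, the inducible form, was lower in fasted mice at CT16, where controls stood at 357, 302, 329 and 277 CPM and fasted mice at 146, 155, 209 and 215 CPM. The groups did not overlap and differed by -0.82 (adjusted p = 0.00237), though without male replicate 1 the adjusted p was 0.0633. At that time Hsp90ab1 was at -0.28 (adjusted p = 0.101). Hsp90ab1 was higher at CT32, with 537, 548, 569 and 486 CPM in controls and 799, 744, 671 and 683 CPM in fasted mice. This difference of 0.43 (adjusted p = 0.0105) and that of 0.42 at CT44 (adjusted p = 0.00619) were each lost without male replicate 2, at adjusted p of 0.0834 and 0.142. Hsp90aa1 was at 0.53 at CT32 (adjusted p = 0.0694) and at 0.11 at CT44 (adjusted p = 0.715). At CT20 neither HSP90 gene was called.

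The cold-inducible genes were called higher in fasted mice at times from CT24 on. Rbm3 was called at 6 of 9 times and Cirbp at 5, where CT28 did not pass (0.44, adjusted p = 0.126). At CT36 Cirbp stood at 15.4, 10.0, 12.7 and 13.1 CPM in controls and 34.6, 36.5, 27.6 and 44.3 CPM in fasted mice, a log2 difference of 1.48 ± 0.21 (2.79-fold, adjusted p = 8.50e-07). No fasted mouse came near the controls. Over CT36, CT40 and CT44 the control means were 12.8, 10.1 and 12.9 CPM and the fasted means 35.8, 31.8 and 25.9 CPM, but the later means came from few mice. At CT40 the fasted males, at 12.4 and 14.9 CPM, lay among the controls (7.73 to 14.1 CPM) or just above them, while the females stood at 37.5 and 62.3 CPM. At CT44 the fasted mean included female 1 at 52.6 CPM beside 17.1, 18.2 and 15.7 CPM, and without female replicate 1 the difference of 0.92 fell to 0.24 (adjusted p = 0.368). The differences at CT24 (0.90) and CT32 (0.67) were lost without male replicate 1, at adjusted p of 0.125 and 0.111.

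Rbm3 was steadier between mice. At CT28 it stood at 16.2, 20.8, 13.0 and 19.9 CPM in controls and 35.4, 30.3, 32.3 and 30.4 CPM in fasted mice, a difference of 0.88 ± 0.15 (1.84-fold, adjusted p = 1.74e-05). At CT40 the controls lay between 26.1 and 27.4 CPM and the fasted mice between 42.0 and 56.5 CPM, a difference of 0.80 (adjusted p = 2.08e-05). At all of CT28 to CT44 the 4 fasted mice lay above the 4 controls. The call at CT24, 0.42, was lost without female replicate 2 (0.21, adjusted p = 0.266) and that at CT36, 0.58, without male replicate 1 (0.49, adjusted p = 0.143).

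At CT40 the fasting effect differed between males and females. Hspa8 averaged 904 CPM in control males and 1712 CPM in fasted males, but 1772 CPM in control females and 917 CPM in fasted females. In males both fasted mice were above both controls, and in females both were below. Hsph1 stood at 77.7 and 88.1 CPM in control males and 114 and 104 CPM in fasted males, against 166 and 126 CPM in control females and 53.4 and 18.2 CPM in fasted females. Cirbp was higher in both fasted females and overlapped in males, at 14.1 and 9.01 CPM in control males, 12.4 and 14.9 CPM in fasted males, 7.73 and 9.40 CPM in control females, and 37.5 and 62.3 CPM in fasted females. A test of the sex difference in the fasting effect at each time, chosen after seeing the data, called 8 of the 10 genes at CT40, where 5.92% of all genes were called. Female minus male, the difference was -1.87 for Hspa8 (adjusted p = 0.00605), -2.03 for Dnajb1 (adjusted p = 0.00501) and 2.29 for Cirbp (adjusted p = 0.00280). Hsph1 (-2.41), Dnaja1 (-1.69), Hsp90aa1 (-1.69), Hsp90ab1 (-1.09) and Hspa1b (-3.86) were also called, while Hspa1a (-3.41, adjusted p = 0.0675) and Rbm3 (0.23, adjusted p = 0.715) were not.

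With 2 mice per sex this split rested on few animals. Leaving out either male replicate at all times gave 0 calls, and leaving out a female replicate gave 8 or 9 with all times counted. At the other times edgeR called 0 of 80 pairs, with 11 at an unadjusted p under 0.05, while DESeq2 called 1 and limma-voom 0, and 0.706% of all gene and time pairs were called over all times. At CT24, 6 heat shock genes had both fasted males below and both fasted females above their controls. The share of all genes with that split was not computed, and the 6 come from the same few mice. Among them Hspa8 had a difference of 1.43 that did not pass edgeR's test (adjusted p = 0.124, with 0.212% of all genes called by that test). Averaged over times, the sexes differed in the fasting effect for 0 of 10 genes (2 at an unadjusted p under 0.05, Dnajb1 and Cirbp), against 12.4% of all genes. The level in controls differed by sex for 0 of 10, also at an unadjusted p under 0.05 and by DESeq2 and limma-voom, against 39.2% of all genes. Because of the CT40 split, the calls in both sexes together at that time, lower for Hsph1 (-0.81), Hsp90aa1 (-0.74) and Dnaja1 (-0.64), were at 0.40, 0.10 and 0.21 in the males alone. Fasted CT40 female 2, the library with the highest Cirbp level, also had the highest summed immediate-early level of its group, 295 CPM against 82.8 to 127 CPM, and its part was not tested.

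A rhythm was called in fasted mice for 9 of 10 genes, against 47.1% of all genes. The 9 included Hspa1a (adjusted p = 0.000142), which was not called in controls, and left out Dnaja1 (adjusted p = 0.0555), which was. When both treatments were fitted after food removal, each with its own linear drift, all 8 heat shock genes had later peak estimates in fasted mice. These ran from 1.14 h for Hsp90ab1 to 4.99 h for Hspa8. The 95% interval held shifts in both directions for Hspa1a (-1.77 to 5.96 h), Hsph1 (-0.03 to 4.01), Hsp90ab1 (-0.50 to 2.78) and Dnaja1 (-1.03 to 6.23). The share of all genes with a later peak estimate was not computed. In such fits the clock gene Per2 peaked at CT14.5 in controls and CT13.8 in fasted mice, Bmal1 at CT21.6 and CT22.5, and Nr1d1 at CT7.11 and CT7.32. The rhythm difference itself was called for 2 genes, Hspa8 and Rbm3, against 23.2% of all genes. Hspa8 peaked 4.99 h later (95% interval 2.85 to 7.13, adjusted p = 0.00749) with a peak-to-trough range that hardly moved, 1.19 in controls and 1.16 in fasted mice on the log2 scale. Without female replicate 1 or 2 the adjusted p for Hspa8 was 0.0560 or 0.0838. Rbm3 peaked 2.12 h earlier (0.53 to 3.71), with an adjusted p of 0.0437 that passed in no case once a replicate was left out (0.0827 to 0.144). Hspa1b shifted by 4.85 h (2.07 to 7.63) and Hsp90aa1 by 1.89 h (0.47 to 3.31) without a called difference (adjusted p = 0.0661 and 0.0860).

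Mice of the same treatment, time and sex differed from each other in a common direction across the heat shock genes. Each log2 CPM value was set against the mean of its pair of mice, and the deviations of 2 genes were correlated over the 80 libraries, with a permutation test that swapped the mice within the 40 pairs. Of 45 gene pairs 30 were called, 20 positive and 10 negative. Pairs of other genes were not examined, so these counts have no background share beside them. All 20 positive pairs were among the 28 pairs of heat shock genes, whose r ran from 0.14 to 0.91 with a median of 0.63. Hsp90aa1 and Hsp90ab1 had the strongest relation (r = 0.91, rho = 0.86, permutation adjusted p = 9.00e-05 for each). The 10 negative pairs all joined a heat shock gene to Cirbp or Rbm3, and over those 16 pairs r ran from -0.80 to -0.06. Dnajb1 and Cirbp had r = -0.80 and rho = -0.74, each with a permutation p of 1e-05, the smallest the permutations can give, and an adjusted p of 9.00e-05. Leaving out the 2 libraries farthest from the median of Dnajb1 gave r = -0.79, and r was -0.81 within controls and -0.79 within fasted mice. Cirbp and Rbm3 were not called (r = 0.37, adjusted p = 0.101).

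The libraries at either end of Cirbp are given with their levels of Dnajb1, the gene with the strongest negative relation to it, ranked from the highest. The 4 highest Cirbp values, 62.3 CPM in fasted CT40 female 2, 52.6 in fasted CT44 female 1, 44.3 in fasted CT36 female 2 and 42.4 in fasted CT32 female 1, came with Dnajb1 ranks of 78, 74, 80 and 76 of 80. The 4 lowest Cirbp values, 7.73, 7.87, 8.55 and 9.01 CPM in control CT40 female 1, fasted CT16 female 2, control CT16 female 1 and control CT40 male 2, came with Dnajb1 ranks of 3, 4, 2 and 34. The last of these did not share the high Dnajb1 level of the other 3. Other genes followed less closely at the high end of Cirbp. In the 4 highest the Hspa8 ranks were 29, 30, 66 and 56, those of Hsph1 77, 54, 67 and 76, and those of Dnaja1 80, 79, 68 and 54. In the 4 lowest the Hspa8 ranks were 3, 7, 6 and 40, those of Hsph1 1, 10, 2 and 21, and those of Dnaja1 1, 7, 3 and 27. The spread between mice of a pair was widest for Hspa1b, with an SD of 0.87 on the log2 scale, at the 97.2th percentile of all genes tested, and for Hspa1a (0.76). It was smallest for Hsp90ab1 at 0.17, below the median of all genes, 0.33.

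Some genes followed the members over the 20 means of treatment and time, among 11575 genes with a mean log2 CPM of at least 1. These means share their libraries and a common scaling, so r is a description. Dnajb1 itself was the gene most like Hspa1b (r = 0.923), followed by Phf8 (0.911), Clp1 (0.903), Ccdc117 (0.902) and Top1 (0.884). Cirbp was followed by Slc20a2 (0.961), Zc3h6 (0.943), Dmac2l (0.940), Mtx3 (0.932) and Gm56807 (0.927), and Rbm3 by Galk1 (0.918), Ankrd28 (0.873), Vdac2 (0.855) and Hgsnat (0.853). All 5 genes most like Hspa8 were its processed pseudogenes, led by Gm15459 (r = 0.995), 79.9% of whose windows of 75 bases also stand in Hspa8. The pseudogenes of Hspa8 held 5.69% of the summed level of gene and pseudogenes, so reads shared between them are a limit on the level of Hspa8.

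Within Rbm3, fasting changed which parts of the gene carried the counts. Of the exon bins, 10 of 27 tested held a smaller share in fasted mice and 0 a larger one, where 2.07% of all bins were called in either direction, and the gene passed with an adjusted p of 7.28e-33 (edgeR's exon usage test). The bins carry no coordinates of their own and were matched by number to the GENCODE M21 annotation on GRCm38. There Rbm3, on the minus strand at chrX:8138975-8145880, has the same number of bins, 31. The limits of the bins could not be compared, so the kind of each bin rests on that match. The number differed for Hspa8 (40 deposited, 37 annotated) and Dnaja1 (28 and 30). Bins in retained introns and exons of non-coding isoforms held 10.4% of Rbm3 counts in controls and 6.26% in fasted mice, with 5 of 7 bins lower. Coding exons held 55.6% and 63.3%, and the untranslated ends of coding transcripts the rest. Bin 18, which by that match holds the exon start shown above, went from 3.62% to 2.15%. Its usage changed by -1.05 as log2 with an adjusted p of 1.22e-17. Bin 2, in an untranslated end, went from 8.15% to 4.82% (-1.22, adjusted p = 3.55e-33).

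**Figure D4:**
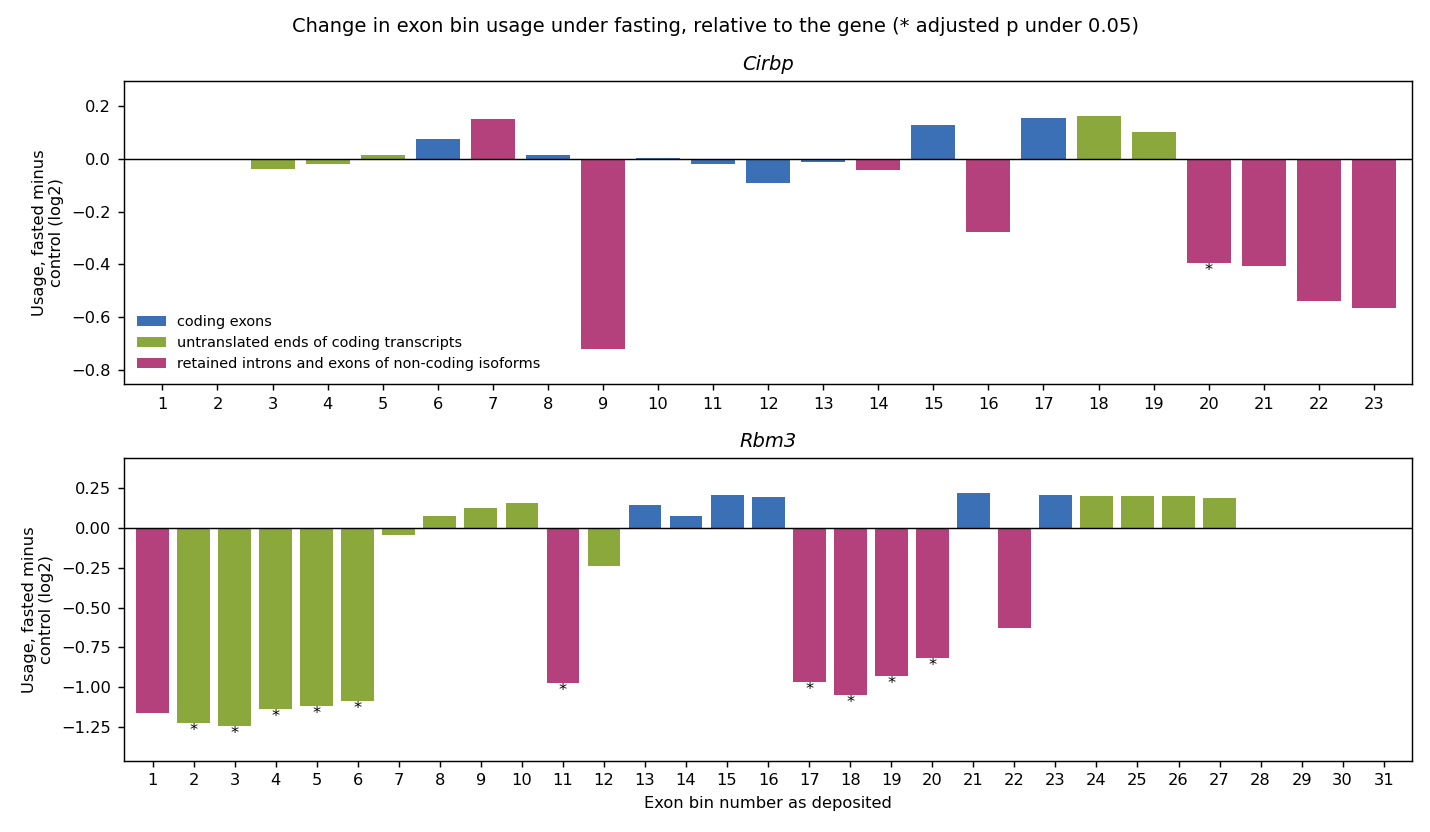
Change in usage of each exon bin of Cirbp (top) and Rbm3 (bottom) under fasting, relative to the gene and on the log2 scale, by bin number, with colours for the kind of annotation and an asterisk for an adjusted p under 0.05. In Rbm3 all 10 called bins lie below 0, including bin 18 at -1.05, while 1 bin of Cirbp, bin 20, is called at -0.39. Bins without a bar were not tested.

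The shares also changed over the day. In controls the retained and non-coding share of Rbm3 ran from 7.31 ± 1.32% (SD, n = 4) at CT12 to 16.3 ± 3.07% at CT24. The level of these bins hardly differed, at 3.19 ± 0.63 CPM of all exon counts at CT12 and 3.16 ± 0.41 at CT24. The coding exons stood at 26.7 ± 1.93 CPM at CT12 and 9.04 ± 2.57 CPM at CT24, so the share rose as they fell. In fasted mice it was 13.4 ± 2.48% at CT20, 3.71 ± 2.36% at CT28, 2.50 ± 0.88% at CT32 and 2.62 ± 0.70% at CT36. No fasted mouse at CT32, at 1.64 to 3.64%, came near the controls at 6.99 to 9.87%. At CT36 the retained bins stood at 3.09 ± 0.41 CPM of all exon counts in controls and 1.93 ± 0.51 in fasted mice, and the coding exons at 24.4 ± 5.91 and 51.5 ± 2.99 CPM. A rhythm of the bin's share in controls was called for 11 bins of the 10 genes, 9 of them in Rbm3, against 1.28% of all bins. The shares of the called retained and end bins of Rbm3 peaked from CT21.1 to CT23.7 and at CT1.8, and those of its called coding bins between CT10.6 and CT11.2. The count of 11 was 3 to 8 when a replicate was left out.

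**Figure D5:**
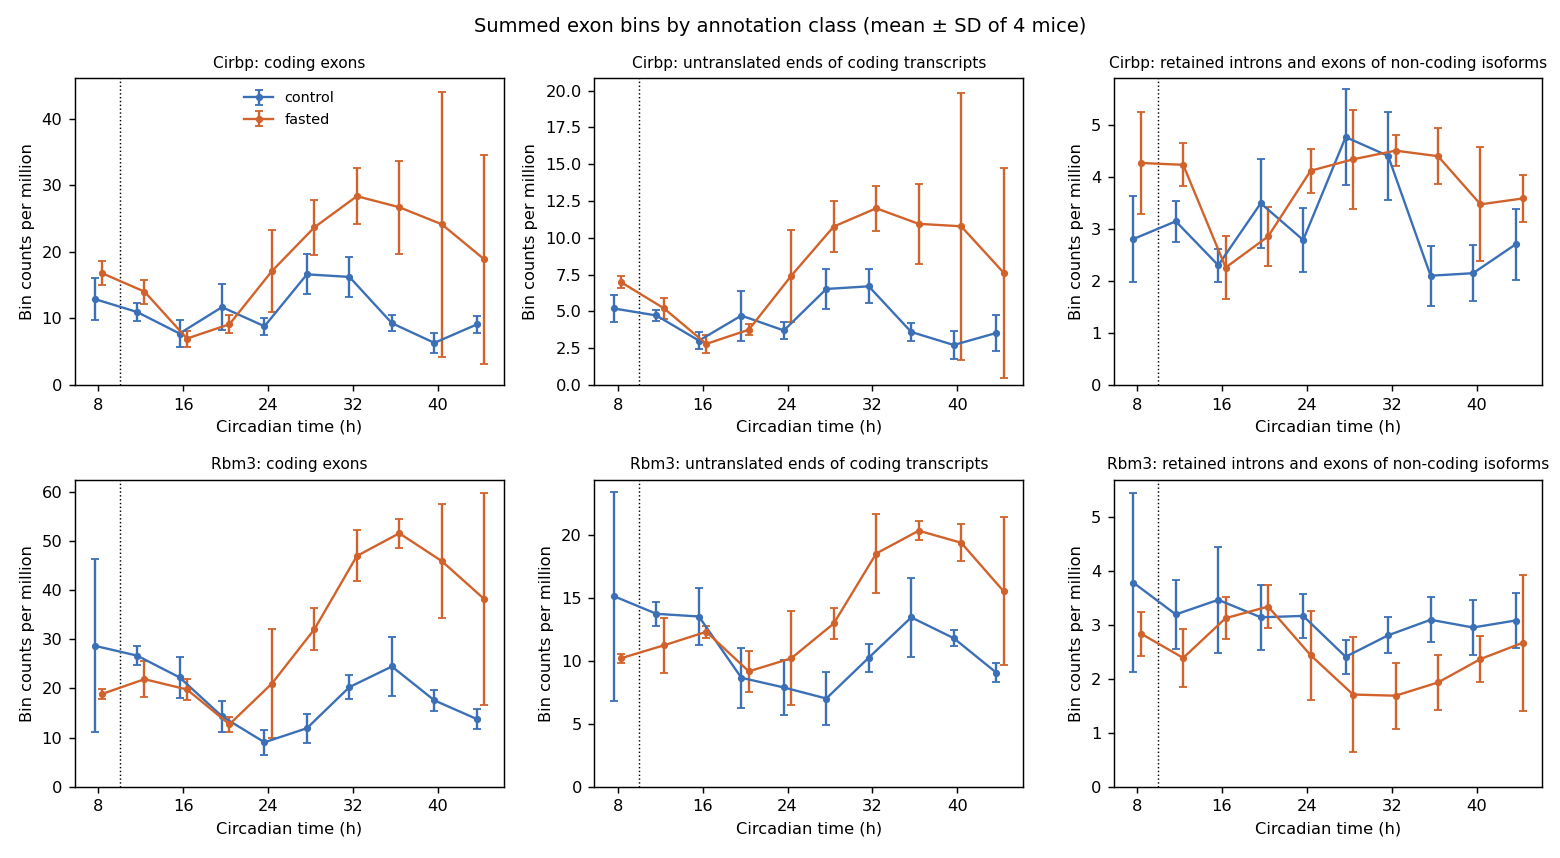
Summed exon bin counts of Cirbp (top) and Rbm3 (bottom) as CPM of all exon counts for coding exons, untranslated ends, and retained introns with exons of non-coding isoforms, against circadian time in hours, as the mean ± SD of 4 mice in control (blue) and fasted (orange) livers, with a dotted line where food was removed. At CT36 the coding exons of Rbm3 stand at 51.5 CPM in fasted mice and 24.4 in controls, and its retained class at 1.93 and 3.09. At fasted CT40 the names of 3 of the 4 exon columns did not match the gene table, which does not affect the mean of the 4.

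In the other genes exon usage gave less. Cirbp had 1 of its bins lower, bin 20, at -0.39 (adjusted p = 0.0259), in a gene that did not pass (adjusted p = 0.0632). The share of its retained and non-coding bins was 17.2% in controls and 14.6% in fasted mice. Hspa8 passed (adjusted p = 3.11e-08) through 5 bins that each held under 0.1% of its counts, and did not with at least 10 counts in every library (adjusted p = 1.00) or without male replicate 2 (adjusted p = 0.0650). In all, 2 of the 10 genes were called, against 14.3% of all genes, and Hspa1a and Hspa1b had 1 bin each and could not be tested. At fasted CT40, 3 exon columns followed another mouse of that group in the gene table (own r of -0.63 to -0.12, best r of 0.90 to 0.95), so the 4 were fitted there as 1 group without sex.

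The wider chaperone network did not move as 1 group. Beside the 29.5% higher and 32.9% lower among all genes, with a median of -0.02, the 8 subunits of TRiC, the ring chaperonin that folds actin and tubulin, had 6 higher and 0 lower with a median log2 difference of 0.15. Tcp1 rose by 0.38 and Cct2 by 0.37. Of 5 mitochondrial chaperones 4 were higher and 1 lower, among them Grpel1 (0.37), the exchange factor of the mitochondrial HSP70, and Hspa9 (0.28), that HSP70 itself. Of 11 other J-domain genes 6 were higher and 4 lower, with Dnaja3 at 0.50 and Dnaja2 at 0.37. Of 8 other HSP70 and HSP110 genes 1 was higher and 5 lower, led by Hspa13 (-0.54) and Hspa4l (-0.35).

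Among 18 cochaperones, 8 were higher and 7 lower, and the extremes were Bag4 (0.64) and Fkbp4 (-0.87), an immunophilin of the HSP90 complex that went from a mean of 198 CPM in controls to 108 CPM in fasted mice. Of 5 small or inducible heat shock genes 3 were higher and 2 lower, with Serpinh1, the collagen chaperone, at -1.08 and Cryab at -0.45. Hspb1 had a wide rhythm in controls, with a peak-to-trough log2 difference of 2.33 at CT20.2. Hsf1, which encodes the main heat shock factor, rose by 0.11 and Hsf4 fell by 0.38, with 1 higher and 2 lower among 4 genes of that group. Of the CLK kinases, which phosphorylate splicing factors and are sensitive to temperature, 3 of 4 were higher and 0 lower, with Clk1 at 0.41 and Clk4 at 0.23. A rhythm in controls was called for 14 of 18 cochaperones, 9 of 11 J-domain genes, 7 of 8 TRiC subunits, 4 of 8 other HSP70 and HSP110 genes, 4 of 5 small or inducible heat shock genes, 4 of 5 mitochondrial chaperones, 2 of 4 CLK kinases and 1 of 4 genes of the heat shock factor group, against 41.8% of all genes.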

How the data were processed

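Polyadenylated RNA from 80 mouse livers was sequenced as paired ends with a stranded kit. The authors deposited raw counts per gene and raw counts per exon bin. The submitters' processing notes name Trimmomatic, HISAT2, DESeq2 and GRCm39. The counting program and its strand setting are not given in the sources used here. The authors' normalised table was not used, and 0 columns were left unmapped. Titles gave each library's group, because further labels contradict them for sex and for treatment (40 libraries each). The article is a review and states no tests.

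Counts were filtered with filterByExpr, scaled by TMM and fitted with edgeR 4.0.16 (quasi-likelihood) in R 4.3.3, with Benjamini-Hochberg adjustment over all genes tested and a threshold of 0.05. Fasting effects came from 1 mean for each treatment, time and sex, rhythms from a cosine of 24 h with sex, and exon usage from diffSpliceDGE. CPM used scaled library sizes, and log2 CPM used a prior count of 2. Covariation used 100000 resamples. The edgeR tests of genes and of exon bins were tried on simulated data. Alternatives included limma-voom (limma 3.58.1), DESeq2 1.42.0, other scalings and filters, single sexes, and leaving out each replicate. Sequences were read with Python 3.11.15. Exon bins carry no coordinates and were matched by their number to GENCODE M21 on GRCm38.

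The members and the gene lists were chosen with earlier results of these data known. Genes named beside the members are the 5 most alike to Hspa8, Hspa1b, Cirbp and Rbm3 and, from each list, the 2 with the smallest p for fasting or for rhythm, of which some are given, and 1 of the genes most alike is not reported here. Libraries of 1 group were compared pairwise by chi-square and none was a duplicate.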

Additional observations from a re-analysis of the deposited data

Results flagged for a closer look

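In 14 of the 200 groups of 4 mice (10 genes, 2 treatments, 10 times) 1 mouse stood apart, with a gap to the nearest of the others that took more of the range of the group than Dixon's critical share for 4 values. Chance gives about 1 in 20 groups. The 14 values came from 11 libraries.

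For HSP70 these were Hspa8 at 362 CPM in control CT44 female 2 (the others at 632 to 664), at 529 CPM in fasted CT8 female 1 (462 to 465) and at 1173 CPM in fasted CT28 male 2 (804 to 815). Control CT36 male 2 stood apart for both inducible genes, with Hspa1a at 5.41 CPM (0.151 to 0.539) and Hspa1b at 52.0 CPM (7.52 to 11.1). Hspa1b was also at 4.80 CPM in control CT20 female 1 (3.01 to 3.29). For HSP90 they were Hsp90aa1 at 113 CPM in control CT24 female 1 (200 to 217), Hsp90aa1 at 211 CPM in fasted CT36 female 1 (98.3 to 115) and Hsp90ab1 at 632 CPM in control CT12 female 2 (555 to 561). Among J-domain genes, Dnaja1 was at 175 CPM in fasted CT12 male 2 (188 to 190.0), and fasted CT24 male 1 was low for both Dnaja1, 146 CPM (198 to 208), and Dnajb1, 17.3 CPM (25.2 to 26.0). Fasted CT44 female 1 was low for Dnaja1 at 97.1 CPM (189 to 206) and high for Cirbp at 52.6 CPM (15.7 to 18.2).

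The other differences that stood out were those of the fasting effect between the sexes at CT40, by edgeR's quasi-likelihood test of the difference itself, with 2 mice per sex and treatment. Female minus male on the log2 scale they were -1.87 for Hspa8, -3.86 for Hspa1b, -2.41 for Hsph1, -1.69 for Hsp90aa1, -1.09 for Hsp90ab1, -1.69 for Dnaja1, -2.03 for Dnajb1 and 2.29 for Cirbp. Their adjusted p ran from 0.00280 for Cirbp to 0.0302 for Hspa1b. At the same time the rRNA share of the 8 libraries was 0.0597 to 1.80%, highest in fasted male 1.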

How the results depend on the processing

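Leaving out each replicate gave 15 to 35 single-time calls (30), 0 to 3 rhythm differences (2), 3 to 8 rhythmic exon bins (11), 1 or 2 genes with changed exon usage (2), 0 or 1 calls at CT8 (0), 0 to 2 for sex in level (0), 0 or 1 for the mean sex difference in the fasting effect (0) and 0 to 9 for that difference at single times (8). Without the filter on low counts these last 4 were 5, 3, 2 and 22, and rhythm differences 8, with no share of all genes beside them. Other counts that moved were the control rhythms in males alone (4), covarying pairs in controls (17) and in fasted mice (9), rhythm differences in females (1), in males (0) and without the linear change (1), CT8 by DESeq2 (1) and in females (1), and exon usage with at least 10 counts in every library (1). The cause was not tested.

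Signs turned in the males alone at CT40 for Hspa8 (0.92), Hsp90ab1 (0.53), Hsph1 (0.40), Dnaja1 (0.21) and Hsp90aa1 (0.10) and at CT24 for Hspa8 (-0.16), and in the females alone for the mean of Clk3 (-0.00949). From CT12 to CT28 the mean effect on Hspa1a was 0.59, and from CT32 to CT44 it was -0.64 on Hspa1b and -0.014 on Hspa2. Without female replicate 2, Dnaja1 at CT44 was at -0.30, and its sex difference ran from -0.79 without that replicate to 0.62 without female replicate 1. In all, 129 recomputed counts stayed within 1.5 times and 29 did not. The 4 means that passed did so under TMM, DESeq2's size factors and upper quartile scaling.

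With the replicate block the counts were 4 for the mean effect, 30 at single times, 9 and 9 for rhythms, 2 for their difference, 2 for exon usage, 0 at CT8, 0 and 0 for sex, and 8 at single times by sex, so the block moved none. The numbers gave no pairing: over 20 pairs of treatments at a time and sex, r of same-numbered mice ran from -0.06 to 0.25 (median 0.00), with 1 above 0.1. Depth limits Hspa1a most, with a mean of 0.693 CPM in controls.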
